A study of Caenorhabditis elegans with 17 samples.

Results

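NRDE-3-associated small RNAs of dis-3(ust56) animals were compared with those of control animals, gene by gene, outside rRNA. The targets described here are the genes of any class other than rRNA that had at least 100 antisense reads in either library, which gave 385 of the 45506 genes in the count tables. The series holds 17 small RNA libraries with 1 library per condition, of which this comparison uses 2. Both libraries were made from L3 animals grown at 20°C on NGM plates with OP50 bacteria, and both strains carried eri-1(mg366) and a 3xFLAG::GFP::NRDE-3 transgene that was precipitated with anti-FLAG beads. The mutant library added dis-3(ust56), a temperature-sensitive, partial loss-of-function missense allele, and the control library had no further mutation. The other NRDE-3 libraries used for levels carried eri-1(mg366), the same transgene and exos-1(ust57), exos-10(ok2269), or dis-3(ust56) with rrf-1(pk1417) and rrf-2(ok210). Total small RNA came from L3 animals of eri-1(mg366);dis-3(ust56), eri-1(mg366), dis-3(ust56) and the wild-type strain N2, none of which carries the transgene in its label. A further total library came from L3 animals that combined these eri-1 and dis-3 alleles with the rrf-1 and rrf-2 alleles named above. Its label does not name the transgene either. No condition has a replicate, so each difference below has no replicate check, and each interval is an exact 95% interval that covers counting error only.

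NRDE-3 is a somatic nuclear Argonaute of C. elegans that carries 22G siRNAs, short antisense RNAs made by RNA-dependent RNA polymerases (RdRPs), into the nucleus to silence matching transcripts. eri-1 mutants lack the ERI-pathway siRNAs that normally fill NRDE-3. DIS-3 is a catalytic ribonuclease of the RNA exosome, which trims and degrades rRNA precursors, snoRNAs and other structured RNAs. Antisense reads on a transcript were therefore taken as the readout of NRDE-3 cargo.

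The dis-3 library held 7485475 reads on transcripts and the control library 9545120. Sense rRNA took 86.9% of the dis-3 reads and 60.7% of the control reads, and sense microRNA took 0.131% in dis-3 and 8.30% in control. This left 44615 antisense reads on protein-coding transcripts in dis-3 and 166110 in control, or 0.596% of all reads in dis-3 and 1.74% in control. Levels below are antisense reads per 10000 antisense protein-coding reads unless stated otherwise, so that 1 read is worth 0.224 in dis-3 and 0.0602 in control. A share of all reads lowers every dis-3 to control ratio by 1.55 on the log2 scale relative to this one, and a share of sense microRNA reads raises it by 4.44, so each direction given here is relative to antisense protein-coding reads. The study's methods scale instead by reads other than sense rRNA and sense protein-coding reads. Computed over reads on transcripts, that scale raises every log2 ratio by 1.38. All samples were whole-animal lysates, in which fewer cells of a type and less RNA per cell cannot be told apart. As markers of stage, the 5 larval microRNAs let-7, lin-4, mir-48, mir-84 and mir-241 summed to 119885 per 1000000 sense microRNA reads in dis-3 and 161326 in control. The members disagreed: let-7 (48384 in dis-3, 18760 in control), lin-4 and mir-241 were higher in dis-3, and mir-48 (60045 in dis-3, 115385 in control) and mir-84 were lower. The 8 embryonic microRNAs mir-35 to mir-42 summed to 12070 in dis-3 and 10371 in control on the same scale. Sense piRNA reads, a marker of germ cells, numbered 55 in dis-3 and 2056 in control, which is lower in dis-3 per 1000000 reads of all kinds (7.35 in dis-3, 215 in control) and higher per 1000000 sense microRNA reads (5626 in dis-3, 2596 in control). The part of stage and germ cell content in the results below was not tested.

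By class, antisense reads on spliced leader RNAs, the short RNAs that are trans-spliced onto nematode mRNAs, were 9.66-fold higher in dis-3 (8.09 to 11.58), with 449 reads in dis-3 and 173 in control. Antisense snRNA reads were 2.39-fold higher (1.95 to 2.92), with 165 reads in dis-3 and 257 in control, and antisense snoRNA reads were 1.88-fold higher (1.79 to 1.98), with 2140 reads in dis-3 and 4234 in control. Transposon reads went the other way and were 2.99-fold lower in dis-3, at 326 per 10000 against 977 in control. Antisense lincRNA reads lay at 127.76 per 10000 in dis-3 and 131.96 in control, a ratio of 0.968 with an interval (0.881 to 1.06) that holds 1. As shares of all reads, spliced leader RNA stayed 3.31-fold higher in dis-3, whereas the ratio was 0.645 for snoRNA and 0.819 for snRNA. For scale, antisense rRNA, the class left out of the targets, lay at 5551 per 10000 in dis-3 and 293 in control. When every gene that overlaps another on the opposite strand was left out, the ratio was 5.07 for spliced leader RNA, 5.02 for snoRNA and 1.36 for rRNA, the last against 18.9 over all its genes. For rRNA this setting drops rrn-3.1, which alone held 80.0% of the antisense rRNA reads in dis-3 and 69.9% in control. The value of 1.36 therefore rests on a minority of the rRNA reads and does not describe the class.

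The class labelled ncRNA looked 4.102-fold lower in dis-3, at 2448 per 10000 against 10042 in control, but this direction rested on genes that lie opposite other small RNA genes. Without the ncRNA genes that overlap a miRNA, tRNA, snRNA or snoRNA gene on the other strand, ncRNA reads lay at 778 per 10000 in dis-3 and 373 in control, 2.09-fold higher in dis-3 (2.00 to 2.17). These remaining genes held 32.5% of the ncRNA class reads in dis-3 and 3.74% in control. Of their 3473 reads in dis-3 and 6199 in control, the gene srpr-2.2, described below, alone gave 1171 in dis-3 and 716 in control.

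**Figure D1:**
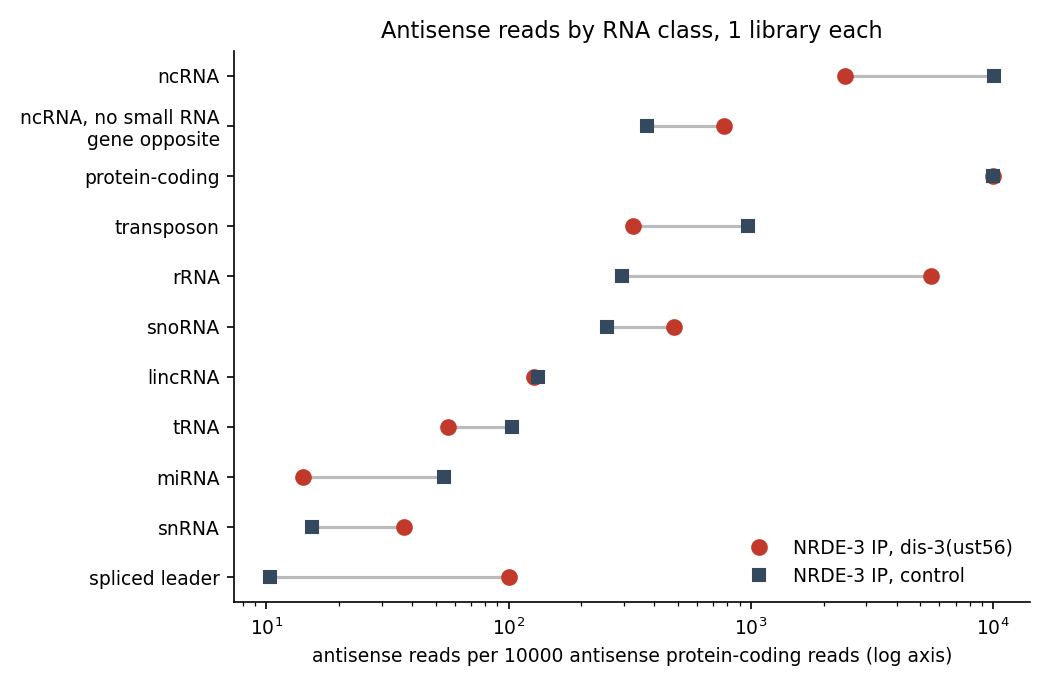
Antisense reads per 10000 antisense protein-coding reads (log axis) for each RNA class with 50 or more reads, in the dis-3(ust56) NRDE-3 IP (circles) and the control NRDE-3 IP (squares), 1 library each. Spliced leader RNA, snRNA, snoRNA and rRNA lie to the right in dis-3, transposons, tRNA and miRNA lie to the left, and ncRNA changes side once genes opposite a small RNA gene are left out.

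Of the 385 targets, 223 were in the protein-coding class, 124 in the ncRNA class, 22 were transposons, 9 snoRNAs, 6 lincRNAs and 1 a miRNA. The file labels of 6 targets in the protein-coding class name another RNA type, and the annotation calls 8 of that class pseudogenes. The targets held 42.8% of the antisense reads outside rRNA in dis-3 and 69.8% in control. The rule on 100 reads was passed in control by 369 targets and in dis-3 by 49, with 33 in both. The 16 genes that passed through dis-3 alone had to be at least 3.76-fold higher in dis-3, because the dis-3 library holds fewer antisense reads, so the number of higher targets is set largely by the rule. Just inside the rule lay atx-2 with 41 reads in dis-3 and 100 in control, and just outside lay sosi-1 with 17 in dis-3 and 99 in control.

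With 1 read added to each count, 19 targets were 4-fold or more higher in dis-3 and 103 were 4-fold or more lower, with a median log2 ratio of -1.28. Among all 3625 genes with 10 or more antisense reads in either library, 5.96% were 4-fold higher and 9.63% were 4-fold lower, and the median log2 ratio was -0.18. With reads other than sense rRNA and sense protein-coding as denominator, 34 targets were higher and 35 lower, and the median turned to 0.10. Of the 33 targets that passed in both libraries, 3 were 4-fold higher and 5 were 4-fold lower, with a median of 0.46. The chromosomes carried 46 to 69 targets each, and none was on mitochondrial DNA.

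**Figure D2:**
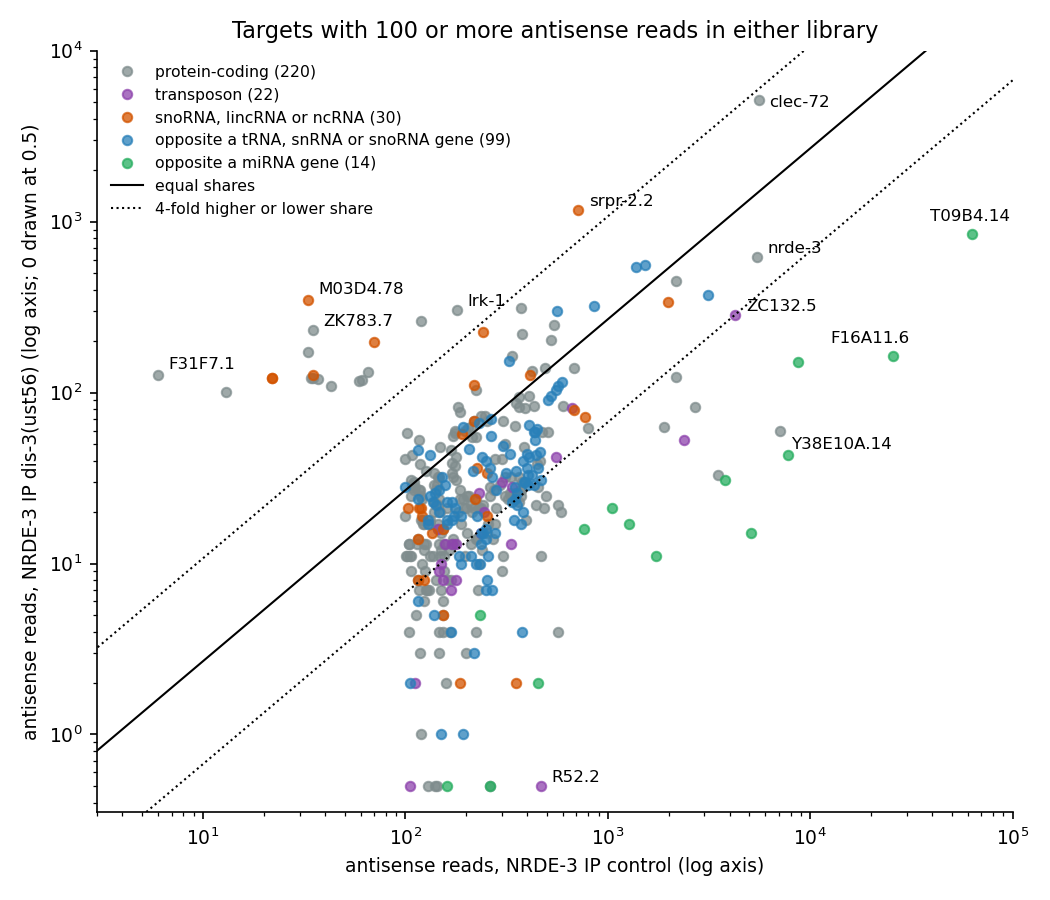
Antisense reads of the 385 targets in the dis-3(ust56) NRDE-3 IP (vertical, log axis, 0 drawn at 0.5) and in the control NRDE-3 IP (horizontal, log axis). Points are genes coloured by class or by the gene on the opposite strand, the solid line marks equal shares of antisense protein-coding reads and the dotted lines a 4-fold difference. Genes opposite a miRNA gene (14) all lie below the lower dotted line.

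SnoRNAs, which guide rRNA modification and processing, included 4 of the 19 higher targets, all 4 of which entered the targets through dis-3 alone and so had to be higher. M03D4.78 (chromosome IV, 6117751 to 6117876, minus strand, WBcel235) had 346 antisense reads in dis-3 and 33 in control, or 77.6 per 10000 in dis-3 and 1.99 in control, which is 39.04-fold higher (27.3 to 57.6). T26A8.6 (chromosome IV, 8428614 to 8428739) and a snoRNA gene that overlaps pkd-2 on the other strand (chromosome IV, 15234446 to 15234620) each had 121 reads in dis-3 and 22 in control, 20.5-fold higher (12.9 to 33.9). T08B6.64, again on chromosome IV, had 126 in dis-3 and 35 in control, 13.4-fold higher (9.15 to 20.1). For M03D4.78 hardly any sense reads were counted, 0 in dis-3 and 2 in control, whereas T26A8.6 had 456 sense reads in dis-3 and 3191 in control. None of the 9 snoRNA targets was 4-fold lower, and their median log2 ratio was 0.17. The snoRNA with most reads in control, K07C10.2, had 341 in dis-3 and 1982 in control, a ratio of 0.641 (0.569 to 0.719). It overlaps the ncRNA gene K07C10.6 on the other strand, whose sense reads numbered 339 in dis-3 and 1979 in control, so antisense K07C10.2 reads cannot be told apart from sense K07C10.6 reads.

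The most abundant higher target was srpr-2.2, a gene of the signal recognition particle (SRP) RNA. SRP RNA is the scaffold of the particle that brings secretory proteins to the endoplasmic reticulum. The SRP RNA gene srpr-2.2 (chromosome III, 5031410 to 5031708, minus strand) had 1171 antisense reads in dis-3 and 716 in control, or 262 per 10000 in dis-3 and 43.1 in control. That is 6.09-fold higher (5.54 to 6.69), and 2.09-fold as a share of all reads. Its copy srpr-2.1 had 225 reads in dis-3 and 241 in control, 3.48-fold higher (2.89 to 4.19). Copies of a gene divide the reads of shared sequence between them, so the pair is not independent. The SRP RNA gene srpr-1.1, also a target, had 68 reads in dis-3 and 217 in control. Its ratio was 1.17, with an interval (0.875 to 1.54) that holds 1. The Y RNA gene yrn-1, an RNA bound by the Ro protein, had 247 reads in dis-3 and 541 in control, 1.70-fold higher (1.46 to 1.98). It overlaps the ncRNA gene F55G1.20 on the other strand, whose sense reads were nearly equal to these, 263 in dis-3 and 532 in control, and these reads cannot be told apart.

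The leading higher target was the protein-coding gene F31F7.1 (chromosome V, 6276439 to 6278160, plus strand), with 127 antisense reads in dis-3 and 6 in control, 78.8-fold higher (35.2 to 219). The control value is only 6 reads, which gives the wide interval. No annotated gene lies opposite it, and its sense reads numbered 47 in dis-3 and 151 in control. The zinc-finger gene lir-1 had 101 reads in dis-3 and 13 in control, 28.9-fold higher (16.2 to 56.2). ZK783.7 had 233 reads in dis-3 and 35 in control, 24.8-fold higher (17.3 to 36.4), beside 1 sense read in dis-3 and 0 in control. The hnRNP R homologue hrpr-1 had 174 reads in dis-3 and 33 in control, 19.6-fold higher (13.5 to 29.4). C37C3.2, C27D8.2 and ZK688.5 had 120 or 121 reads in dis-3 and 34 to 37 in control, 12.1- to 13.3-fold higher. As shares of all reads these genes lay between 4.136-fold higher for ZK688.5 and 26.99-fold for F31F7.1. All of them entered the targets through dis-3 alone, so a value above 1 on that scale was certain.

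The other higher protein-coding targets are not covered by the naming rule and are given here as a choice made with their values in view. F23A7.4 had 264 antisense reads in dis-3 and 120 in control, 8.19-fold higher (6.58 to 10.3), and its neighbour on chromosome X, F23A7.8, lay at 29.59 per 10000 in dis-3 and 3.913 in control, 7.56-fold higher (5.58 to 10.3). The LRRK kinase gene lrk-1 had 305 in dis-3 and 180 in control, 6.31-fold higher (5.23 to 7.63). The RNA-binding gene rbm-3.2, the RBBP6-like gene rbpl-1 and the ribosomal protein gene rpl-43 had 110 to 118 in dis-3 and 43 to 61 in control, 7.20- to 9.52-fold higher. All 19 higher targets stayed above 1 as shares of all reads, and 11 of them stayed 4-fold or more higher on that scale. For the 16 that passed the rule through dis-3 alone, a value above 1 was certain, because dis-3 also has fewer reads in all.

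The lincRNA linc-133 had 197 antisense reads in dis-3 and 70 in control, 10.5-fold higher (7.94 to 14.0). The sense reads of 2 genes that overlap it on the other strand were alike in number, 204 in dis-3 and 55 in control for T09A5.18, and 193 in dis-3 and 77 in control for linc-110. Reads antisense to linc-133 and reads sense to its partners cannot be told apart. linc-169 lay near equality in the NRDE-3 libraries, with 127 reads in dis-3 and 411 in control, a ratio of 1.15 (0.935 to 1.41).

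**Figure D3:**
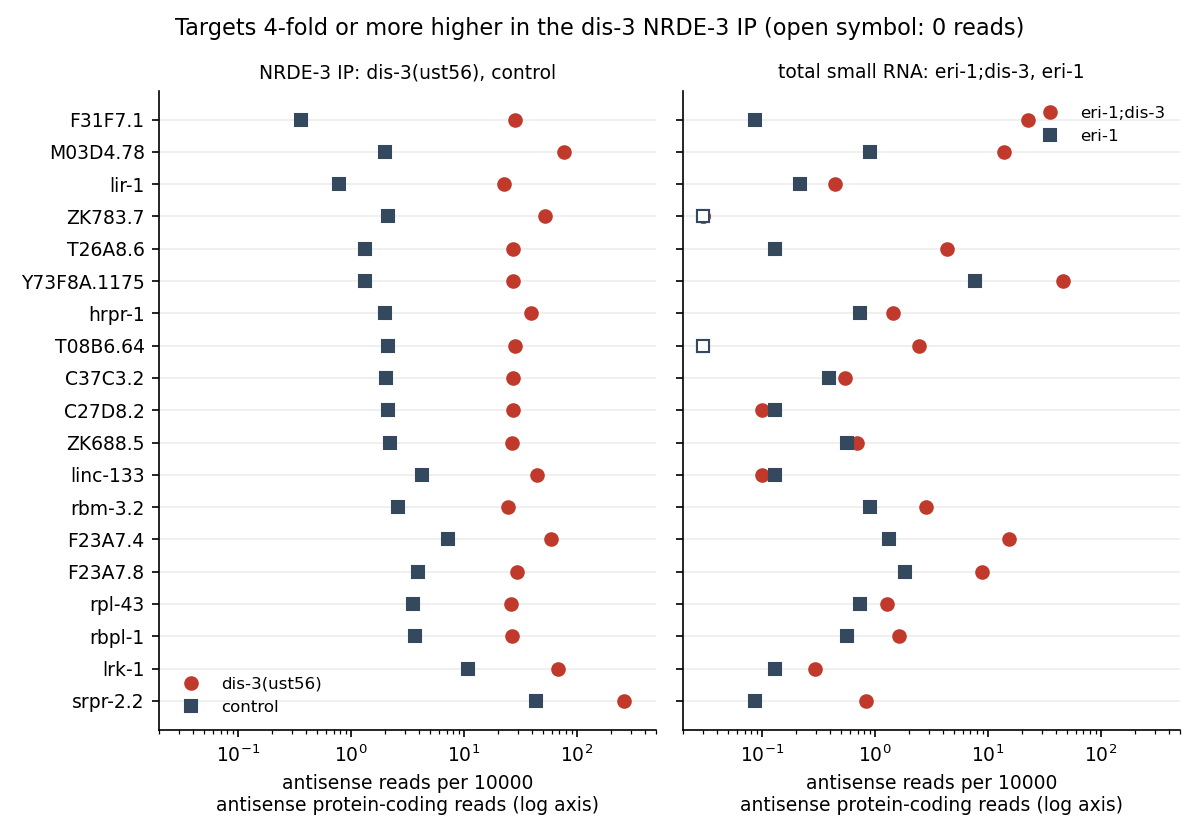
Antisense reads per 10000 antisense protein-coding reads (log axes) for the 19 targets that were 4-fold or more higher in the dis-3(ust56) NRDE-3 IP, in the NRDE-3 libraries (left, dis-3 circles and control squares) and in total small RNA (right, eri-1;dis-3 circles and eri-1 squares). Open symbols mark 0 reads. Circles lie right of squares for all 19 genes on the left, and on the right the gap is widest for F31F7.1.

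The gene with most antisense reads in dis-3 was clec-72 (chromosome IV, 3944816 to 3947362, plus strand), a C-type lectin gene. It had 5118 reads in dis-3 and 5577 in control, which is 11.5% of all antisense protein-coding reads in dis-3. Its ratio was 3.42 (3.29 to 3.55), and 1.17 as a share of all reads. In the 3 other NRDE-3 libraries clec-72 had 34 reads in exos-1, 13 in exos-10 and 3 in dis-3;rrf-1;rrf-2, and in total small RNA it had 1 read in eri-1;dis-3 and 4 in eri-1. Its count was at most 34 in each of the 8 libraries used here other than this pair.

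The nrde-3 gene itself was the second protein-coding target in dis-3, with 624 antisense reads in dis-3 and 5468 in control, or 139.9 per 10000 in dis-3 and 329 in control. Its ratio was 0.425 (0.390 to 0.462). Sense nrde-3 reads numbered 32759 in dis-3 and 54069 in control, and endogenous gene and transgene share this sequence. Antisense reads made up 1.87% of all nrde-3 reads in dis-3 and 9.18% in control. The neuronal gene unc-119, a common rescue marker in worm transgenesis, had 63 reads in dis-3 and 1890 in control, 8.06-fold lower (6.27 to 10.5). In total small RNA, nrde-3 had 224 antisense reads in eri-1;dis-3 and 831 in eri-1, and 0 in dis-3 and 5 in N2. unc-119 had 140 in total eri-1;dis-3 and 203 in total eri-1, and 2 in total dis-3 and 9 in total N2. The microRNA Argonaute gene alg-1 had 312 in dis-3 and 372 in control, 3.12-fold higher (2.68 to 3.64).

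Of the 103 lower targets, 39 lie opposite a miRNA, tRNA, snRNA or snoRNA gene, and so did 113 of all 385 targets, 109 of them in the ncRNA class. None of those 113 was 4-fold higher. The 12 ncRNA targets opposite a miRNA gene summed to 1320 antisense reads in dis-3 and 118839 in control, 24.2-fold lower in dis-3, and made up 12.1% of the ncRNA class reads in dis-3 and 71.2% in control. The miRNA genes on the other strand summed to 2355 sense reads in dis-3 and 238186 in control, 27.2-fold lower. In control each of the 12 held between 0.434 and 0.539 antisense reads per sense read of its miRNA. The leading member, T09B4.14, opposite mir-1, had 851 antisense reads in dis-3 and 62696 in control, beside 1514 sense reads of mir-1 in dis-3 and 127705 in control. F16A11.6, opposite mir-71, had 164 antisense reads in dis-3 and 25542 in control, beside 291 sense reads of mir-71 in dis-3 and 49047 in control. K01F9.6 (opposite mir-80), K01F9.7 (mir-90), Y71G12B.36 (mir-50), C32D5.15 (mir-60) and F49E12.14 (mir-85) had 0 to 43 antisense reads in dis-3 and 161 to 7731 in control. For these genes an antisense read and a microRNA read have the same strand and place, and they cannot be told apart in the counts.

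Targets opposite other structural RNAs differed less between the libraries. The 77 targets opposite a tRNA gene had a median log2 ratio of -1.44 with 23 lower, the 12 opposite an snRNA gene a median of -1.15 with 1 lower, and the 10 opposite a snoRNA gene a median of -0.47 with 1 lower. In the snRNA group the antisense reads (264 in dis-3 and 2070 in control) nearly equalled the sense reads of the opposite snRNA genes (259 in dis-3 and 2046 in control). In the tRNA group they exceeded them, with 3527 antisense reads in dis-3 and 25352 in control, against 599 sense tRNA reads in dis-3 and 10141 in control. Among these, C03B1.16 had 561 antisense reads in dis-3 and 1522 in control, and D1073.3 had 544 in dis-3 and 1371 in control. The 272 targets with no such gene opposite had a median log2 ratio of -1.25, with 19 higher and 64 lower. Among all 385 targets 4.94% were higher and 26.8% lower, with a median of -1.28. The lower calls and medians of the tRNA group and of these 272 targets lay near those values.

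**Figure D4:**
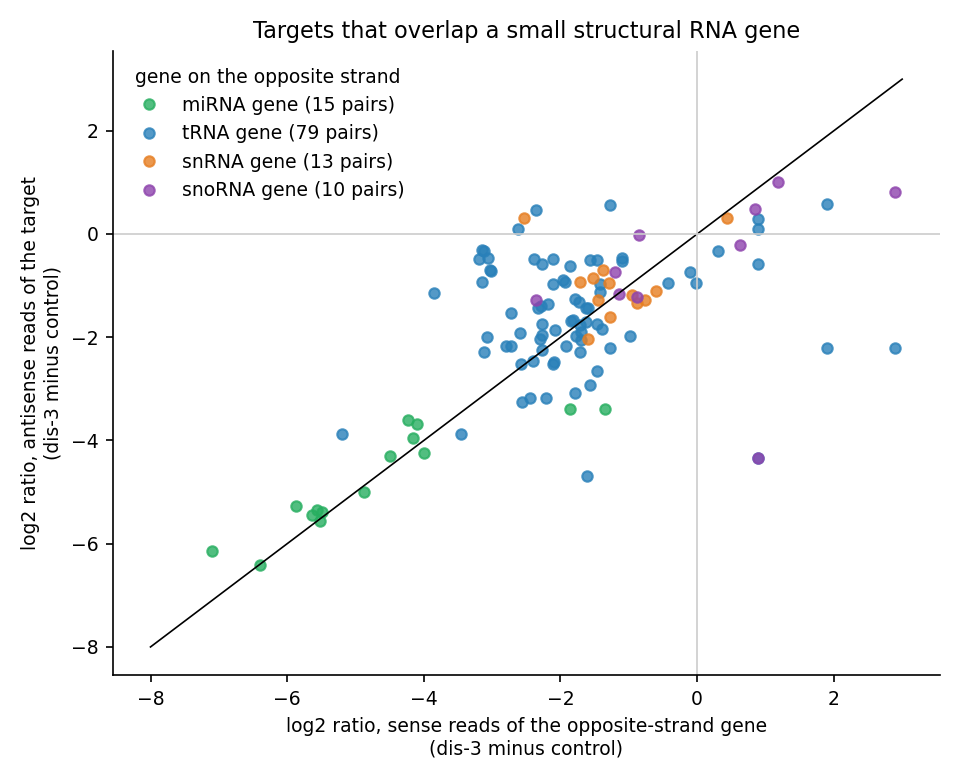
Log2 ratio (dis-3 minus control) of the antisense reads of each target that overlaps a miRNA, tRNA, snRNA or snoRNA gene, against the log2 ratio of the sense reads of that gene on the other strand. Each point is 1 pair of genes and the line marks equality. The pairs with a miRNA gene sit low on both axes, most of them near the line.

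Among protein-coding targets with no small RNA gene opposite, the largest in control was Y38E10A.14 (chromosome II, 12623110 to 12624533, minus strand), with 60 antisense reads in dis-3 and 7110 in control, or 13.4 per 10000 in dis-3 and 428 in control. That is 31.8-fold lower in dis-3 (24.7 to 41.8). Its neighbour nspe-1, of a nematode-specific peptide family, had 0 in dis-3 and 140 in control, at least 12.5-fold lower when 0 is set to a floor of 3 reads per library. With that floor, K09F6.9 (0 in dis-3, 263 in control) was at least 23.5-fold lower, the RNase H gene rnh-1.3 (0 in dis-3, 144 in control) at least 12.9-fold lower and C08F11.7 (0 in dis-3, 130 in control) at least 11.64-fold lower. Further examples, named after their values were seen, were the prion-like gene pqn-96 with 33 reads in dis-3 and 3490 in control, 28.4-fold lower, and ram-2 with 4 in dis-3 and 566 in control, 38.0-fold lower. The ciliary kinesin gene osm-3 had 1 read in dis-3 and 120 in control, 32.2-fold lower (5.68 to 1284), an interval set by the single read. All genes named in this paragraph entered the targets through control alone, the library in which they are high.

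Of the 22 transposon targets 9 were 4-fold lower and none was higher, with a median log2 ratio of -1.93, where 26.8% of all targets were lower and their median was -1.28. With reads other than sense rRNA and sense protein-coding as denominator, the ratio of the whole transposon class was 0.871. R52.2 had 0 antisense reads in dis-3 and 470 in control, at least 42.1-fold lower. Y60A3A.27 had 53 in dis-3 and 2380 in control, 12.1-fold lower (9.19 to 16.1). ZC132.5, the largest, had 283 in dis-3 and 4272 in control, 4.05-fold lower (3.59 to 4.59), and T27C5.9 had 81 in dis-3 and 662 in control, 2.195-fold lower (1.74 to 2.80). Of the transposons named here, all but ZC132.5 entered the targets through control alone. The only miRNA target, cel-mir-5592-1, had 2 in dis-3 and 452 in control and overlaps cel-mir-5592-2 on the other strand, with 2 sense reads in dis-3 and 525 in control. Among lincRNAs, linc-22 had 72 reads in dis-3 and 767 in control, 2.86-fold lower (2.25 to 3.70), and linc-29 had 19 in dis-3 and 253 in control, 3.58-fold lower (2.24 to 6.04).

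Gene families and pathways were described for all members with 10 or more antisense reads in either library. Ribosomal protein genes stood high: of 55 such rpl- and rps- genes, 19 were 4-fold or more higher in dis-3 and none was lower, 50 had a log2 ratio above 0 and the median was 1.63, where 5.96% of all genes with 10 or more reads were higher and 9.63% lower. Their summed antisense reads were 1091 in dis-3 and 1254 in control, 3.24-fold higher (2.98 to 3.52), and 1.11-fold as a share of all reads. Examples are rpl-12 with 27 reads in dis-3 and 8 in control, rps-4 with 15 in dis-3 and 4 in control, and rpl-26 with 36 in dis-3 and 14 in control. Sense reads of these genes made up 6.25% of sense protein-coding reads in dis-3 and 5.51% in control. The antisense counts are small beside 52286 sense reads in dis-3 and 128840 in control. A gene under 10 antisense reads in control passed the minimum through dis-3 alone and had to be called 4-fold higher. Of the examples this holds for rpl-12 and rps-4, and such genes also count in the 5.96% of all genes.

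Histone genes are present in many near-identical copies. Of 70 with 10 or more antisense reads 8 were 4-fold lower, or 11.4%, close to the 9.63% of all such genes, and none was higher, with a median log2 ratio of -0.43. The log2 ratios of the 47 histone genes that were targets ran from -2.57 for K06C4.3 to 0.23 for ZK131.9, with a median of -1.09, and 7 of the 47 were 4-fold lower, against 26.8% of all targets. Over all 72 histone genes the antisense reads summed to 2316 in dis-3 and 14982 in control, 1.74-fold lower in dis-3. The 20 F-box genes of the fbxa family with 10 or more reads had a median of -1.57, with 6 lower (30%, where 9.63% of all genes with 10 or more reads were lower) and none higher. Only fbxa-218, with 13 reads in dis-3, reached 10 reads there. The others passed the minimum through control alone, so the median and the lower calls depend on that minimum.

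Pathway genes had few reads. Of 21 ERI-pathway and ERGO-1 targets 18 were found in the tables, 8 had 10 or more reads and none was a target. Of these 8, C18D4.6 (2 reads in dis-3, 45 in control) and E01G4.5 (0 in dis-3, 26 in control) were 4-fold lower and none was higher, with a median log2 ratio of -0.78. Both lower genes passed the minimum of 10 reads through control alone. Over the 18 genes found, the sum was 66 reads in dis-3 and 279 in control, a ratio of 0.881 (0.663 to 1.16). In total small RNA 5 genes of the list had 10 or more reads and 2 of these were 4-fold lower in eri-1;dis-3, with 294 reads in eri-1;dis-3 and 912 in eri-1 over the list, a ratio of 0.368. Of the exosome and cofactor genes 6 had 10 or more reads, none 4-fold different, with 7 antisense reads of dis-3 itself in dis-3 and 34 in control. Since dis-3(ust56) is a missense allele, reads on dis-3 do not check the label. The nucleolar and rRNA processing list had 10 such genes and none 4-fold different, its only target being ncl-1, a regulator of nucleolar size, with 32 reads in dis-3 and 145 in control. In the small RNA amplification list, 12 genes had 10 or more reads and none was 4-fold different. In the nuclear RNAi and RdRP list, 9 genes had 10 or more reads, of which nrde-1, with 10 reads in dis-3 and 7 in control, was higher and none lower. As nrde-1 passed the minimum through dis-3 alone, it had to be called higher. The targets in this list besides nrde-3 included rrf-2, an RdRP gene, with 27 in dis-3 and 187 in control, a ratio of 0.538 (0.345 to 0.808). Antisense reads of eri-1 numbered 5 in dis-3 and 8 in control, and those of rrf-1 8 in dis-3 and 37 in control.

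The targets were then read in total small RNA of eri-1;dis-3 and eri-1 animals, which are other libraries than the 2 that chose the targets. Of the 19 higher targets, 14 had 10 or more antisense reads in either total library. Of these, 8 were 4-fold or more higher in eri-1;dis-3 and none was lower, with a median log2 ratio of 2.41, where 8.76% of all 4792 genes with 10 or more reads were higher, 5.13% were lower and the median was 0.07. F31F7.1 had 458 reads in eri-1;dis-3 and 2 in eri-1, and M03D4.78 had 284 in eri-1;dis-3 and 21 in eri-1, 15.4-fold higher (9.91 to 25.3). T26A8.6 had 88 reads in eri-1;dis-3 and 3 in eri-1, and T08B6.64 had 50 in eri-1;dis-3 and 0 in eri-1. F23A7.4 had 310 reads in eri-1;dis-3 and 31 in eri-1. srpr-2.2 had 17 reads in eri-1;dis-3 and 2 in eri-1. F31F7.1, T26A8.6, T08B6.64 and srpr-2.2 passed the minimum of 10 reads through eri-1;dis-3 alone, the library in which they are high. The count of 8 and the median of 2.41 therefore depend in part on that minimum. Such genes also count in the 8.76% of all genes. The snoRNAs and F31F7.1 were also high in the pair without eri-1(mg366): F31F7.1 had 1402 reads in total dis-3 and 13 in total N2, M03D4.78 had 297 in total dis-3 and 25 in total N2, and T26A8.6 had 117 in total dis-3 and 1 in total N2.

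Outside these 8, the higher targets with 10 or more reads in total small RNA were less than 4-fold higher there. rbm-3.2 had 57 reads in eri-1;dis-3 and 21 in eri-1. In the same order, rbpl-1 had 33 and 13, and hrpr-1 had 29 and 17. rpl-43 had 26 and 17, C37C3.2 had 11 and 9, and ZK688.5 had 14 and 13. For rpl-43, C37C3.2 and ZK688.5 the interval of the ratio included equality. The remaining higher targets had fewer than 10 reads in both total libraries. ZK783.7 had 0 reads in both eri-1;dis-3 and eri-1, and linc-133 and C27D8.2 each had 2 in eri-1;dis-3 and 3 in eri-1. lrk-1 had 6 in eri-1;dis-3 and 3 in eri-1, and lir-1 had 9 in eri-1;dis-3 and 5 in eri-1. At these counts no difference was detectable.

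Of the 103 lower targets, 92 had 10 or more reads in total small RNA, where 14 were 4-fold higher and 13 lower, with a median log2 ratio of 0.09. Without those opposite a small RNA gene, 54 remained, of which 3 were higher and 12 lower, with a median of -0.63. C08F11.7 had 3 reads in eri-1;dis-3 and 319 in eri-1, and rnh-1.3 had 45 in eri-1;dis-3 and 1303 in eri-1. T09B4.14, the ncRNA opposite mir-1, had 105057 in eri-1;dis-3 and 99696 in eri-1, a ratio of 1.20. Y38E10A.14 had 8 reads in eri-1;dis-3 and 2 in eri-1, and R52.2 and nspe-1 had 0 in both. Between the NRDE-3 and total pairs, the log2 ratios of all 354 targets with 10 or more reads in total had a Pearson r of 0.35. Their Spearman rho was 0.14. For the 242 of these with no small RNA gene opposite, a setting chosen after seeing the data, r was 0.59 and rho 0.41. These values describe genes, which share libraries and depth and are not replicates.

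**Figure D5:**
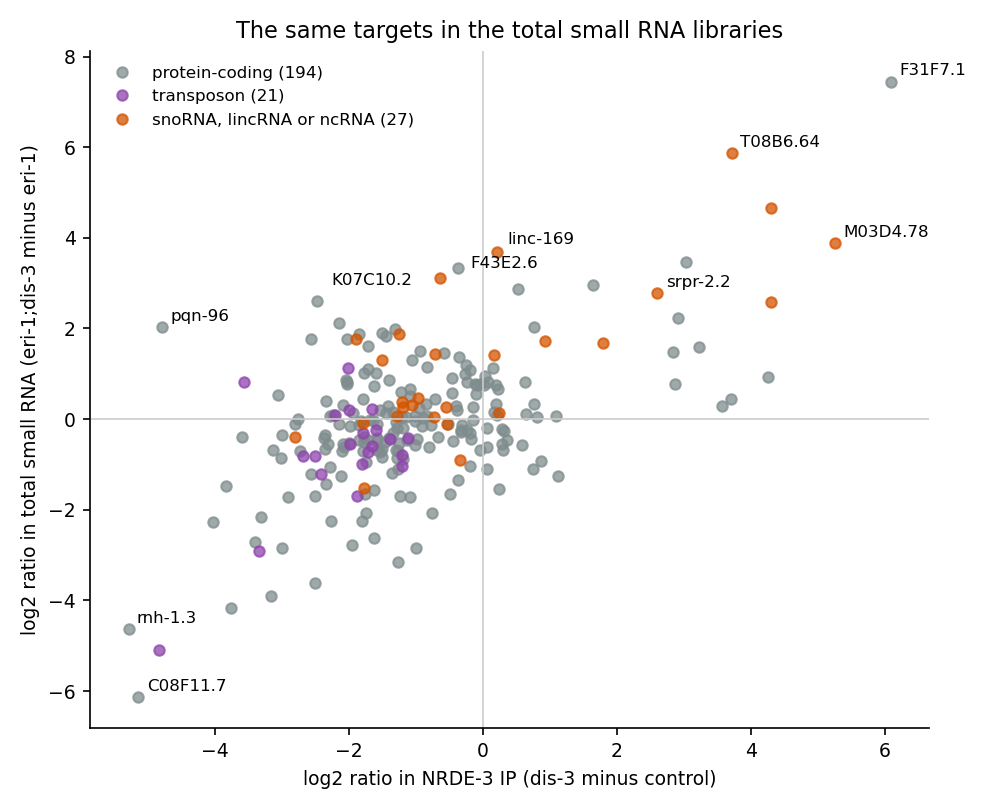
Log2 ratio in total small RNA (eri-1;dis-3 minus eri-1, vertical) against the log2 ratio in NRDE-3 IP (dis-3 minus control, horizontal) for the 242 targets with 10 or more reads in total and no small RNA gene opposite. Points are genes coloured by class. F31F7.1, M03D4.78 and T08B6.64 lie high on both axes, C08F11.7 and rnh-1.3 low on both, and K07C10.2, F43E2.6 and linc-169 high only in total.

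A few targets near equality in NRDE-3 differed in total small RNA. F43E2.6 had 452 antisense reads in dis-3 and 2181 in control in the NRDE-3 libraries, a ratio of 0.772, and 34549 in eri-1;dis-3 and 3917 in eri-1 in total, a ratio of 10.1. linc-169 had 897 reads in total eri-1;dis-3 and 79 in total eri-1, a ratio of 13.0. K07C10.2 had 13097 in total eri-1;dis-3 and 1734 in total eri-1, a ratio of 8.62. The difference between the 2 kinds of library was not tested.

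The remaining NRDE-3 libraries give these levels side by side, and each stands for 1 mutant. M03D4.78 lay at 77.6 per 10000 in dis-3, 23.1 in exos-1, 13.7 in exos-10, 15.3 in dis-3;rrf-1;rrf-2 and 1.99 in control. srpr-2.2 lay at 262 in dis-3, 85.4 in exos-1, 380 in exos-10, 155 in dis-3;rrf-1;rrf-2 and 43.1 in control. F23A7.4 lay at 59.2 in dis-3, 65.7 in exos-1, 165 in exos-10, 13.7 in dis-3;rrf-1;rrf-2 and 7.22 in control. For these genes every exosome mutant lay above control. F31F7.1 lay at 28.47 in dis-3, 4.99 in exos-1, 11.9 in exos-10, 3.67 in dis-3;rrf-1;rrf-2 and 0.361 in control. By contrast lrk-1 lay at 68.4 in dis-3 and between 1.34 and 2.26 in the other mutants, against 10.8 in control. ZK783.7 lay at 52.22 in dis-3 and at most 0.396 in the other mutants, against 2.11 in control. Y38E10A.14 lay at 13.4 in dis-3 and 0.149 in dis-3;rrf-1;rrf-2, but at 187 in exos-1 and 95.7 in exos-10, against 428 in control.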

How the data were processed

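Small RNAs bound to 3xFLAG::GFP::NRDE-3 were recovered from L3 lysates, treated with phosphatase and polynucleotide kinase, size-selected (18 to 40 nt per the labels) and sequenced. The authors mapped the reads with Bowtie2 (version not given in the sources used here) to the WS243 transcriptome and deposited raw counts of sense and antisense reads per transcript, without normalization. Here rows were summed per gene, and class totals were taken from the class column. Rows without a gene name (2 or 3 per library, at most 0.00251% of reads) were left out. Gene names and WBcel235 positions came from Ensembl release 115, which matched 44848 of 45506 genes. The transposons have no position there. Reads on shared sequence are divided among copies, and overlapping genes can share reads.

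Members, lists and tests were chosen with earlier results of these data known. Ratios divide shares of antisense protein-coding reads, with exact conditional binomial 95% intervals (counting error only). A pseudocount of 1 read served the 4-fold calls and medians. No p-value was computed. The method was tested on simulated data. Named genes are the strain genes, the 12 largest log2 ratios in each direction, the 8 targets with most reads per library and the 3 per class other than protein-coding. Further genes in the text were chosen after their values were seen. Intervals were computed with scipy 1.17.1 under Python 3.11.15, tables were handled in pandas 2.3.3 with numpy 2.4.6, and plots were drawn with matplotlib 3.10.9. The 7 other libraries of the series were not used here.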

Additional observations from a re-analysis of the deposited data

How the results depend on the processing

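The denominator moved most values. With all reads as denominator the dis-3 to control ratio of antisense reads was 0.0835 for ncRNA, 0.645 for snoRNA, 0.819 for snRNA, 3.31 for spliced leader RNA, 0.332 for lincRNA and 0.114 for transposons. With reads other than sense rRNA and sense protein-coding as denominator these ratios were 0.635, 4.91, 6.23, 25.2, 2.52 and 0.871, in the same order, and with sense miRNA reads 5.30, 40.9, 52.003, 210, 21.1 and 7.27. Without genes overlapping another on the opposite strand they were 1.99 for ncRNA, 5.02 for snoRNA, 2.92 for snRNA, 5.07 for spliced leader RNA and 0.639 for lincRNA. The counts of higher and lower targets were 11 and 286 with all reads as denominator, 34 and 35 with reads other than sense rRNA and sense protein-coding, and 318 and 1 with sense miRNA reads, and the median log2 ratio was -2.82, 0.10 and 3.16 under these settings. At 2-fold there were 232 lower targets. With a minimum of 200 reads there were 5 higher and 63 lower, with 100 reads required in control 3 higher, and with 100 reads required in dis-3 5 lower and a median of 0.92. Without genes overlapping another on the opposite strand there were 12 higher and 51 lower, and without targets opposite a miRNA, tRNA, snRNA or snoRNA gene, a setting chosen after seeing the data, 64 lower. Leaving the 5 leading genes out of the denominator or halving the pseudocount to 0.5 moved none of these results by more than 1.5 times. Of the 43 named genes, 3 changed the sign of their log2 ratio with all reads as denominator, 7 with reads other than sense rRNA and sense protein-coding, and 13 with sense miRNA reads. Among those 13, ZC132.5 (2.43), Y60A3A.27 (0.88), ZK930.13 (0.49) and T09B4.14 (0.14) had been 4-fold lower, and the other 9 had been between the 4-fold limits. No paired analysis was possible because each condition has 1 library. Each direction is therefore relative to its denominator, and 3 reads, the floor, are 0.672 per 10000 in dis-3 and 0.181 in control.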
